A study of Sus scrofa with 6 samples.

Results

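Liver RNA of newborn piglets was examined here for 4 miRNAs of the miR-17 group, ssc-miR-17-5p, ssc-miR-18, ssc-miR-20 and ssc-miR-106a, written below without the pig prefix ssc. They were taken by their names from the miRNA microarray table, in which they made up 4 of 236 rows that carry the name of a pig miRNA. All 4 had a value on each of the 6 arrays. There were 3 arrays for Large White (LW), a Western breed kept as the control group, and 3 for Erhualian (EHL), a Chinese indigenous breed. Each array carried liver RNA pooled from 2 littermate male piglets killed straight after birth, with 3 litters a breed. The study's methods name no treatment of the piglets of either breed. The piglets came from a pair of neighbouring farms, and which breed came from which farm is not given in the sources used here, so farm and breed cannot be told apart. An array value is thus the mean of a litter pair and does not show the spread between single piglets. Signals below are Cy5 fluorescence on a linear scale after the authors' background correction and LOWESS, a locally weighted regression used for normalization.

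The miR-17 to miR-92 cluster is a polycistron, a single primary transcript that is cut into several mature miRNAs. It is known for its activity in dividing cells, where MYC and E2F factors drive its transcription, and its products repress cell-cycle inhibitors and pro-apoptotic genes. A paralogous cluster on another chromosome gives rise to miR-106a. A miRNA finds its targets through its seed, the bases near its 5′ end. miR-17-5p, miR-20 and miR-106a carry the same seed and differ little elsewhere, while miR-18 has a related seed of its own. Fetal and newborn liver is still growing and, in mammals, is also a site of blood cell formation before and around birth.

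In the RefSeq gene table of the Sscrofa11.1 assembly, MIR17, MIR18A, MIR19A, MIR20A, MIR19B-1 and MIR92A-1 follow each other with no other gene between them. The table lists ssc-mir-18 and ssc-mir-20 as older names of MIR18A and MIR20A. MIR106A lies in a second run, in which MIR363-1, MIR92A-2, MIR19B-2, MIR20B-1, MIR18B and MIR106A follow each other. Mature miR-19b and miR-92a can therefore come from either run, whereas miR-17-5p and miR-106a each come from 1 of them. The values name no genome build, so no position is given.

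The tissue was checked by its miRNAs. miR-122, the most abundant miRNA of hepatocytes, had the highest signal of all named rows on all 6 arrays. Of the 4 hepatocyte miRNAs looked at, 3 (miR-122, miR-192 and miR-148a) were listed on all 6 arrays, while miR-194 was blank on all of them. The skeletal muscle miRNAs miR-1, miR-206 and miR-133a-5p were blank on all 6 arrays, and the fourth, miR-133a-3p, reached 14 to 17 on 3 of them. Each array listed between 101 and 134 named rows, and the median signal of the 96 rows listed on all 6 arrays lay between 187 and 218. In bulk liver RNA, fewer cells of a type and less of a miRNA per cell cannot be told apart.

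The first question was whether the breeds differ in these miRNAs. For none of the 4 members did the difference between EHL and LW exceed the spread between arrays. The 2 breeds overlapped for all 4, and the fold differences of the breed means were small. Among the 109 miRNAs tested, those listed on 2 or 3 arrays in both breeds, limma (adjusted p under 0.15, the FDR of the study's methods) called 1, or 0.917%, and it was no member. SAM, the methods' own test, was recomputed on the same values without the SAMR software that the study used. It called 8, or 7.34%, all higher in EHL, and again 0 of the 4 members (q-values between 58.1% and 100%). The study's own run listed more miRNAs, some of them lower in EHL, and none was a member. At an unadjusted p under 0.05, limma gave 13 of 109, or 11.9%, none of them a member. Of the 96 rows listed on all 6 arrays, 18, or 18.8%, had breeds that did not overlap (11.5% higher and 7.29% lower in EHL), against 0 of the 4 members.

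miR-17-5p, which gives the cluster its name, had signals of 989, 826 and 718 on LW arrays 1, 2 and 3 and of 1014, 721 and 754 on EHL arrays 1, 2 and 3. Array 1 was the highest of its breed in both breeds, and the other 4 arrays lay close together. LW averaged 844 ± 136 and EHL 830 ± 160 (SD, n = 3 arrays each). On the log2 scale EHL minus LW was -0.03 (standard error 0.27, limma, adjusted p = 0.974). Its 95% interval of -0.63 to 0.57 stands for an EHL level between 0.647 and 1.48 times that of LW.

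miR-106a, the copy of miR-17 in the paralogous cluster, had signals of 616, 474 and 474 on LW arrays 1, 2 and 3 and of 584, 403 and 421 on EHL arrays 1, 2 and 3. As with miR-17-5p, array 1 was the highest in both breeds. The other 2 EHL arrays lay below all LW arrays, while EHL array 1 lay above 2 of them. The breed means were 521 ± 82.0 for LW and 469 ± 99.7 for EHL (SD, n = 3). The log2 ratio was -0.16 (standard error 0.27, limma, adjusted p = 0.833), with a 95% interval of -0.77 to 0.44.

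miR-20, called miR-20a in later nomenclature and sharing the seed of miR-17-5p, had signals of 481, 606 and 440 on the LW arrays and of 819, 359 and 501 on the EHL arrays. EHL held both its highest and its lowest value, on arrays 1 and 2, which differed 2.28-fold. LW averaged 509 ± 86.5 and EHL 560 ± 236 (SD, n = 3). The log2 ratio was 0.07 (standard error 0.34, limma, adjusted p = 0.974), with a 95% interval of -0.69 to 0.82. Without EHL array 1 the log2 ratio was -0.25 (limma, adjusted p = 0.654), and without LW array 3 it was -0.03, so that the side on which miR-20 fell rested on single arrays.

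miR-18, called miR-18a in later nomenclature, gave faint signals, of 31, 20 and 22 on the LW arrays and of 32, 20 and 32 on the EHL arrays. The dimmest named miRNA listed on each array had a signal of 10 to 16, so miR-18 stood little above the lower end of what the arrays report. LW averaged 24.3 ± 5.86 and EHL 28.0 ± 6.93 (SD, n = 3). The log2 ratio was 0.20 (standard error 0.30, limma, adjusted p = 0.833), and its 95% interval of -0.48 to 0.88 reached up to 1.83 times the LW level.

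**Figure D1:**
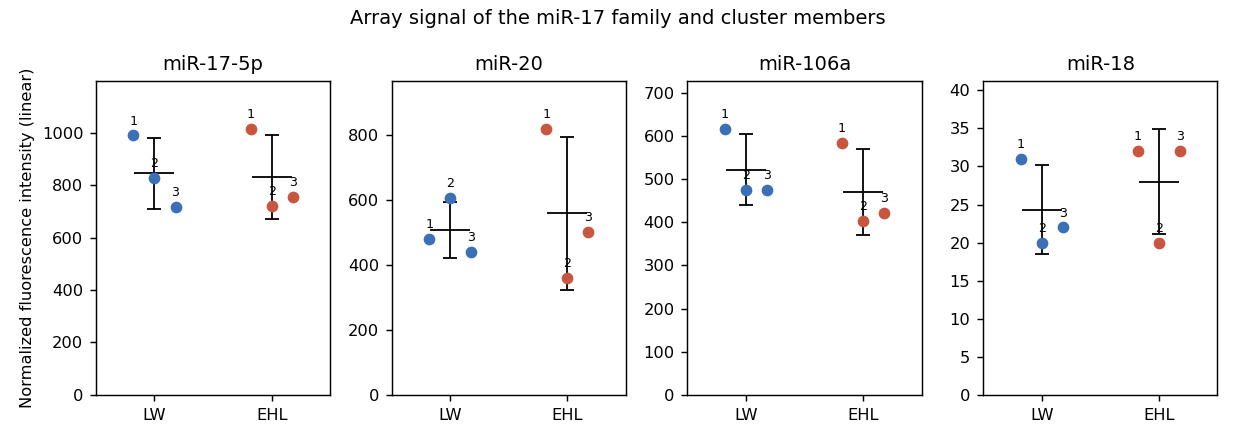
Normalized fluorescence intensity (linear axis from 0, a separate scale for each miRNA) of miR-17-5p, miR-20, miR-106a and miR-18 on the LW (blue) and EHL (red) arrays. Points are single arrays with their number, and the horizontal line and bars are the mean ± SD of 3 arrays; the breeds overlap in all 4 panels, and EHL array 1 stands at or above the other EHL arrays in each.

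Exact two-sided permutation tests of 3 arrays against 3 gave p = 1 for miR-17-5p, 0.8 for miR-20, 0.6 for miR-18 and 0.5 for miR-106a. The smallest p that this design allows is 0.1. The log2 ratios of the members lay between -0.16 and 0.20, with 2 above 0 and 2 below 0 and a median of 0.0184. Over all 109 miRNAs tested the median was 0.0247, and the ratios ranged from -1.44 to 1.72. The median size of the log2 ratio, without its sign, was 0.11 for the members and 0.27 for all miRNAs tested. With 3 arrays a breed, an EHL level up to 1.77 times that of LW for miR-20, or up to 1.48 times for miR-17-5p, lies inside the 95% interval.

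Among the members, arrays of a breed differed least for miR-17-5p and miR-106a. The SD of the log2 signal within breeds was 0.25 for miR-17-5p, 0.26 for miR-106a, 0.36 for miR-18 and 0.46 for miR-20. In the order of the 96 rows listed on all arrays, from the least to the most variable, these were ranks 21, 27, 55 and 69. miR-17-5p and miR-106a were thus steadier than most of these 96 rows. The place of miR-20 came from EHL, since its SD within LW, 0.24, was below the LW median of 0.27, while that within EHL, 0.60, was above the EHL median of 0.36.

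Related miRNAs were taken from a list of 15 names, of which 7 had a row. The list covered the clusters miR-17 to miR-92, miR-106a to miR-363 and miR-106b to miR-25. It also held miR-92b, made from a gene outside them, and the members' later names miR-18a and miR-20a. miR-17-3p, the other arm of the miR-17 hairpin, was blank on all 6 arrays, and so were miR-19a, miR-363 and miR-92b-5p. The study puts such undetected miRNAs down to low hybridization signals, and proposes bases that differ from the probe as a reason for some. miR-19a, blank here, was detected by the study's sequencing of RNA pooled by breed. There it was listed as up-regulated in EHL. The threshold for a blank is not given in the sources used here, so no level can be read from one. miR-93, miR-106b and miR-25 were on the list but had no row under these names. By limma, 0 of the 3 related rows tested were called (0 also at an unadjusted p under 0.05, the p-values lying between 0.186 and 0.734), and SAM gave q-values of 41.6% and more.

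miR-19b, another product of the cluster with a seed of its own, had signals of 64, 30 and 57 on the LW arrays and of 65 and 28 on EHL arrays 1 and 3, and was blank on EHL array 2. The log2 ratio from these 5 arrays was -0.17 (standard error 0.47, limma, adjusted p = 0.951). EHL array 2, where miR-19b was blank, also gave the lowest signals of miR-20 and miR-106a. It listed the fewest named rows of all arrays, 101, and its lowest listed signal, 16, was the highest such value. The blank is thus no measure of how miR-19b went with the members.

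miR-92a, which ends the cluster and has a seed unlike that of miR-17, had signals of 8411, 6361 and 7359 on the LW arrays and of 4862, 7280 and 7767 on the EHL arrays. Its lowest value was on EHL array 1, the array on which miR-17-5p, miR-18 and miR-20 had their highest. The log2 ratio was -0.17 (standard error 0.28, limma, adjusted p = 0.833). miR-92b-3p, made from a gene of its own, had signals of 1112, 1141 and 1466 on the LW arrays and of 782, 1121 and 969 on the EHL arrays, again lowest on EHL array 1. Its log2 ratio was -0.38 (standard error 0.26, limma, adjusted p = 0.604).

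**Figure D2:**
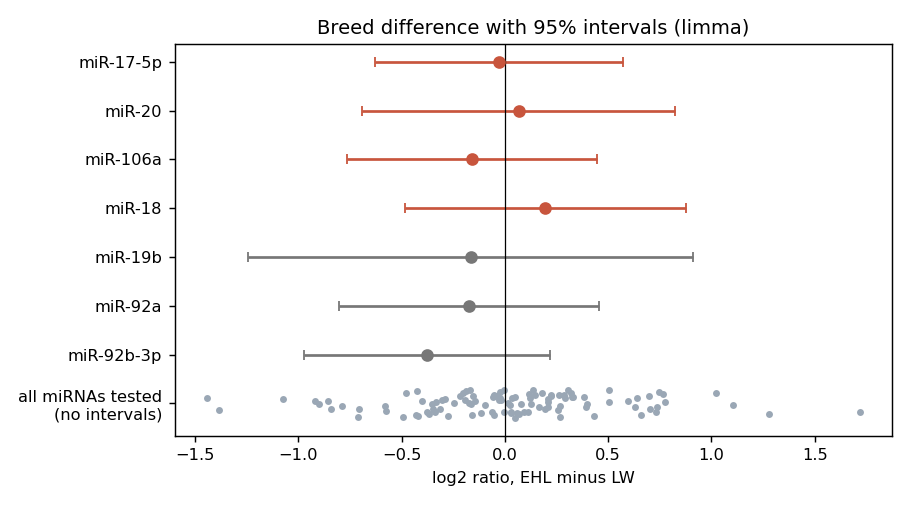
Log2 ratio of EHL to LW (horizontal axis) for the 4 members (red) and for miR-19b, miR-92a and miR-92b-3p (grey), with 95% intervals from limma. The bottom row shows the ratios of all 109 miRNAs tested, spread vertically at random; each of the 7 intervals contains 0.

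The second question was whether the members vary together across the arrays. For miR-17-5p and miR-106a, which come from different clusters, the signal ratio of miR-17-5p to miR-106a was 1.61, 1.74 and 1.51 on LW arrays 1, 2 and 3 and 1.74, 1.79 and 1.79 on EHL arrays 1, 2 and 3. The ratio was nearly the same on every array, although each miRNA alone varied 1.41-fold and 1.53-fold from its lowest to its highest array. A ratio of the signals of different probes does not give the ratio of their amounts. The log2 difference of these 2 miRNAs had an SD of 0.0976 over the 6 arrays, the lowest of all 4560 pairs of rows listed on every array, whose median was 0.566. The next lowest was 0.101. Both miRNAs also varied little on their own, with a log2 SD over the 6 arrays of 0.224 for miR-17-5p and 0.247 for miR-106a. These were ranks 13 and 18 from the lowest among the 96 rows listed on every array. Rows that vary little give a low SD of the difference, so this measure does not separate steadiness from varying together. With each array left out in turn, between 1 and 16 of the 4560 pairs had a lower SD, and after quantile normalization between arrays 172, or 3.77%, had one. The mature sequences of miR-17-5p and miR-106a are nearly alike, and binding of each to the probe of the other was not tested.

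The other 5 pairs, within a cluster or across clusters, lay further apart. The signal ratio of miR-17-5p to miR-20, which lie on the same primary transcript, ranged from 1.24 on EHL array 1 to 2.06 on LW array 1. The SD of their log2 difference was 0.296, and 10.2% of all pairs had a lower one. For miR-17-5p and miR-18, which are neighbours on that transcript, the SD was 0.268, with 7.06% of all pairs lower. For miR-18 and miR-20 it was 0.392, with 23.5% lower. The other pairs across clusters lay inside the range of these, with an SD of 0.293 for miR-18 and miR-106a and 0.334 for miR-20 and miR-106a. No breed difference in any of the 6 log2 differences between members passed (exact permutation p between 0.2 and 0.7, adjusted over the 6 pairs 0.6 or 0.7).

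**Figure D3:**
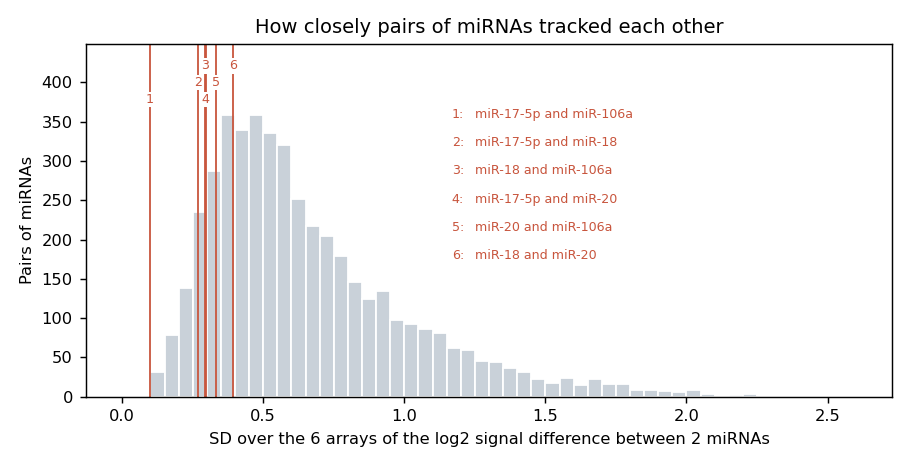
Histogram of the SD, over the 6 arrays, of the log2 signal difference between the miRNAs of each of the 4560 pairs of rows listed on every array (vertical axis, number of pairs). Red lines mark the 6 pairs of members; the pair of miR-17-5p and miR-106a, at 0.0976, stands at the low end, and the other 5 lie between 0.268 and 0.392.

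Across the 6 arrays, the log2 signals of the 6 pairs of members correlated with a Pearson's r between 0.467 and 0.919, with a median of 0.600. The median over all 4560 pairs was -0.0100. After the breed means were taken out, the median over the 6 pairs was 0.701. Only the pair of miR-17-5p and miR-106a had an r with an exact permutation p under 0.05 (r = 0.919, p = 0.0222, n = 6 arrays), and the Benjamini-Hochberg adjusted p over the 6 pairs was 0.133. Of all 4560 pairs, 2.15% had an r at least as high. For the other pairs of members this share lay between 11.3% and 23.9%, so an r of their size was common among all pairs. Its Spearman's rho was 0.696 (exact permutation p = 0.139, adjusted 0.417). Without the 2 arrays farthest from the median of miR-17-5p, which were array 1 of each breed, r was 0.437, so that the correlation rested in part on these arrays. After quantile normalization r was 0.525.

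The other 5 pairs had adjusted p-values between 0.32 and 0.356 for r (exact permutation tests) and rho values between 0.373 and 0.771 with adjusted p between 0.417 and 0.489. For each of them r was computed again without the 2 arrays farthest from the median of either miRNA. These were array 1 of each breed for miR-17-5p and miR-106a, EHL arrays 1 and 2 for miR-20, and array 2 of each breed for miR-18. For miR-17-5p and miR-20, r was 0.710, and it was 0.894 without the arrays of miR-17-5p but 0.194 without those of miR-20. For miR-17-5p and miR-18, r was 0.622, and it was -0.0987 without the arrays of miR-17-5p and 0.635 without those of miR-18. For miR-20 and miR-106a, r was 0.578, and it was -0.175 without the arrays of miR-20 and 0.637 without those of miR-106a. For miR-18 and miR-20, r was 0.467, and it was 0.539 without the arrays of miR-18 and -0.365 without those of miR-20. For miR-18 and miR-106a, r was 0.545, and it was 0.281 without the arrays of miR-18 and -0.288 without those of miR-106a. The r of each of these 5 pairs thus depended on which arrays were kept. Leaving out the arrays farthest from the median takes away much of the spread, so r can fall for that reason alone.

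Within EHL, the arrays with high and low values were largely shared by the members, whereas within LW miR-20 did not follow the others. In LW, miR-20 was highest on array 2, and the other members on array 1. Over the 3 LW arrays its r was 0.200 with miR-17-5p, -0.443 with miR-18 and -0.248 with miR-106a. For the pairs without miR-20, r within LW lay between 0.790 and 0.978. EHL array 1 gave the highest value of 3 of the 4 members, and for miR-18 it was tied with EHL array 3. Over the 96 rows listed on all arrays, 14, or 14.6%, had their highest value there. EHL array 2 gave the lowest value of 3 of the 4 (for miR-18 tied with LW array 2), as it did for 20 of the 96 rows, or 20.8%. The signal on EHL array 1 was 1.41 times that on EHL array 2 for miR-17-5p, 1.45 times for miR-106a, 1.60 times for miR-18 and 2.28 times for miR-20. The median over the 96 rows was 0.900, below 1, whereas all 4 members lay above 1, as did 37 of the 96 rows, or 38.5%. The mean of the members' log2 signals, each centred on its own mean, was 0.19, -0.04 and -0.17 on LW arrays 1, 2 and 3 and 0.38, -0.34 and -0.02 on EHL arrays 1, 2 and 3. Both ends of that range lay within EHL. EHL array 1, at the upper end, had the lowest of limma's array weights, which are smaller for arrays that fit their breed less well. Its weight was 0.455, and those of the other arrays lay between 0.714 and 2.07.

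Markers of red blood cells were high on some of the same arrays as the members, more closely for miR-106a and miR-17-5p than for miR-20 and miR-18. miR-451, an erythroid miRNA, had signals of 220, 100 and 134 on the LW arrays and of 376, 54 and 63 on the EHL arrays, a 6.96-fold span. Its highest arrays were array 1 of each breed, as for miR-17-5p and miR-106a. Over the 6 arrays its r was 0.936 with miR-106a, 0.856 with miR-17-5p, 0.709 with miR-20 and 0.514 with miR-18, given as a description with no test. miR-486, also erythroid, had faint signals between 22 and 34 and was likewise highest on EHL array 1 and LW array 1. The r of miR-486 was 0.861 with miR-106a and with miR-17-5p, 0.638 with miR-20 and 0.472 with miR-18. Its rho was 0.809 with miR-106a and 0.551 with miR-17-5p, but 0.269 with miR-18 and 0.261 with miR-20. Of the 3 erythroid miRNAs on the list, these 2 had a row. Their summed signal ranged from 124 to 249 on the LW arrays and from 78 to 410 on the EHL arrays. The part of blood cells in the members' signals was not tested.

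**Figure D4:**
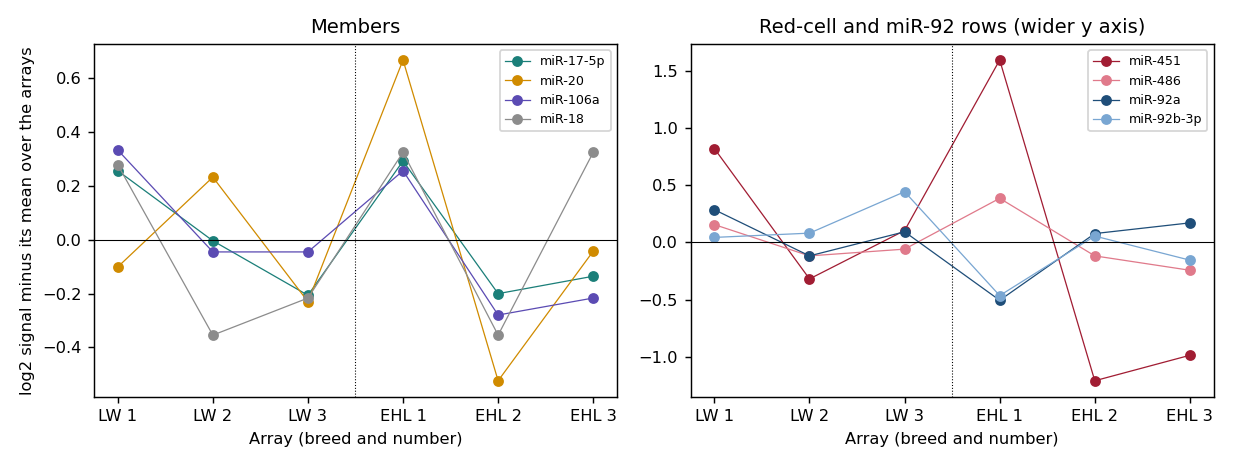
Log2 signal of each miRNA minus its own mean over the 6 arrays (vertical axis), by array, for the 4 members (left) and for the erythroid miRNAs miR-451 and miR-486 and the rows miR-92a and miR-92b-3p (right, on a wider axis). Lines only join the points of 1 miRNA; at EHL array 1 the 4 members and both erythroid miRNAs stand above their means and both miR-92 rows below.

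Markers of other cell types were set against that mean of the members in the same way. miR-126, found in endothelium, ranged from 2209 to 4524, with an r of 0.147 to the mean. miR-145 and miR-143-3p, found in smooth muscle, had an r of -0.350 and -0.0648, and miR-214 and miR-199a, found in stellate cells, one of -0.585 and 0.103. All 5 lay below the 0.862 of miR-451 and the 0.803 of miR-486. Of the 5 leukocyte names on the list only miR-155 had a row, which was blank on all 6 arrays, and a row named miR-142 without an arm was listed on EHL array 3 alone, at 12. Among hepatocyte miRNAs, r was 0.782 for miR-192 and 0.723 for miR-148a, not far below that of miR-486, and 0.243 for miR-122. Taken singly, miR-20 had an r of 0.959 with miR-148a, miR-17-5p one of 0.543, miR-106a one of 0.456 and miR-18 one of 0.346.

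The 5 miRNAs whose pattern over the 6 arrays was most like the mean of the members, of 92 other rows listed on all arrays, were miR-16 (r = 0.867), miR-4334 (0.865), miR-451 (0.862), miR-30b-5p (0.831) and miR-30a-5p (0.816). They were picked as the highest of 92 and carry no test, and the median r over the 92 rows was -0.143. miR-16, a member of the cell-cycle family of miR-15, ranged from 372 on EHL array 2 to 642 on EHL array 1, the arrays that also held the ends of miR-20. Among the members its r was 0.815 with miR-18 and 0.638 with miR-17-5p. miR-4334 ran from 477 to 3175 between the same arrays, and miR-30b-5p from 337 to 709. At the other end of the order were miR-574 with an r of -0.706 and miR-92b-3p with -0.693. miR-92a, of which 1 gene lies in the run of MIR17, MIR18A and MIR20A, had -0.497, and its r with miR-20 alone was -0.804.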

How the data were processed

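Per the labels and the study's methods, small RNA from liver was tailed, hybridized to a pig miRNA chip and stained with Cy5. The authors subtracted the background, normalized by LOWESS and deposited a linear intensity for each probe and array, with blanks that the study's text puts down to low signals, at a threshold it does not state. The number of arrays limits the precision.

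Intensities were converted to log2 with no further scaling. EHL was set against LW with limma 3.58.1 in R 4.3.3 (lmFit and eBayes, breed as the only term) over 109 named rows, those with 2 or more values in both breeds. Benjamini-Hochberg adjustment ran over all 109, with a threshold of 0.15. SAM was recomputed with 20 relabellings and without the SAMR software, its added constant being set at a low percentile of the standard errors. Exact permutation tests and correlations were made in Python 3.11.15 with scipy 1.17.1. Both tests across rows were checked on simulated data.

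The miRNAs named were the 4 members, 15 names of the related clusters and miR-92b, the cell type lists, the 5 rows most like the members and, picked after their values were seen, miR-574. Members, lists and tests were chosen with earlier results of these data known. Alternatives were SAM, a replicate block, median centring, quantile normalization with a map learned on the rows listed on all arrays, stricter and looser filters, a trended and robust fit, array weights, mean linear signals, the LRS rows, a threshold of 0.05 and leaving out single arrays. Filling blanks with the array's lowest signal was chosen after seeing the data. The sources used here name no pairing of the breeds by array number, and the main fit used none. Deviations of same-numbered arrays from their breed means correlated at -0.50, -0.01 and -0.66. These values cannot show whether same-numbered arrays were handled together.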

Additional observations from a re-analysis of the deposited data

How the results depend on the processing

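None of the 4 members was called under any of the 18 alternatives that test them, and the adjusted p of a member (for SAM its q-value as a fraction) lay between 0.513 and 1 over those that give one. miR-106a stayed below 0 (log2 ratio between -0.33 and -0.0347) and miR-18 above 0 (between 0.0579 and 0.42) in every setting run; miR-18 was left out of the test at a mean signal of at least 32. The log2 ratio of miR-17-5p, -0.03 as deposited, was 0.0853 with quantile normalization, and it ranged from -0.18 to 0.0905 when single arrays were left out. That of miR-20, 0.07 as deposited, was -0.12 with array weights and ranged from -0.25 to 0.35 when single arrays were left out. The replicate block gave the members the same ratios with adjusted p between 0.892 and 0.980.

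Over all named miRNAs limma called 1 miRNA. SAM called 8, the replicate block 0 (with 8 at an unadjusted p under 0.05), quantile normalization 2, array weights 22 and testing with the LRS rows 2. Leaving out single arrays, the count ranged from 0 (without LW array 3 or EHL array 2, with 5 and 10 at an unadjusted p under 0.05) to 24 (without EHL array 1), where again no member was called. The cause was not tested.

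The median r of the 6 pairs of members, 0.600, was 0.432 with quantile normalization. Leaving out single arrays gave 0.420 (EHL array 1) to 0.813 (EHL array 3). All 6 pairs kept an r above 0 in these 10 settings, although 4 of them turned negative in 1 of the runs without 2 arrays given above, and the lowest adjusted p (exact permutation) was 0.1. Signal over background limits miR-18, which lay between 20 and 32 where the lowest listed signals were 10 to 16.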
